A study of Mus musculus with 8 samples.

Results

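The Igfbp family comprises the secreted proteins that bind insulin-like growth factors (IGFs) in tissue fluid and at the cell surface. All 6 members listed for this report (Igfbp2, Igfbp3, Igfbp4, Igfbp5, Igfbp6 and Igfbp7) were found by symbol among the 24980 gene symbols of the count table, and all 6 passed the filter on low counts. They are listed by name, and no threshold on their values entered the list, but it was chosen with earlier results of these data known. Igfbp1, which did not pass the filter, is not among them and is given with the relatives below. RNA-seq was performed on 4 groups of mouse skeletal myogenic cells, with 2 biological replicates each. TF cells were freshly isolated teratoma-derived progenitors, from E14-EGFP embryonic stem cells injected into irradiated, cardiotoxin-injured muscle of NSG-mdx4Cv mice. They were sorted as CD31- CD45- α7-integrin+ VCAM-1+ cells. TE cells were the same kind of progenitors cultured on gelatin in expansion medium to passage 8. SF cells were freshly isolated satellite cells, the resident stem cells of adult muscle, and SE cells were satellite cells cultured to passage 8. The strain and age of the satellite cell donors are not given in the sources used here, and the teratoma-derived groups come from a single stem cell line, so origin and genetic background cannot be told apart. Whether a replicate was 1 teratoma or 1 mouse is not stated, so p-values measure the spread between these samples.

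IGF1 and IGF2 act on muscle cells through the IGF1 receptor, promoting both proliferation and differentiation. Igfbp2 to Igfbp6 encode high-affinity carriers that can hold IGF away from the receptor or release it near the cell when proteases such as PAPP-A cut them. Igfbp7 encodes a relative with low affinity for IGF that is deposited in the matrix. In muscle, Igfbp5 is the member best known from myoblasts, where it is induced early in differentiation.

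The members lie at 5 chromosomal places in GRCm38. Igfbp2 (chr1:72824503-72852474, plus strand) and Igfbp5 (chr1:72857932-72874884, minus strand) are neighbours that face each other tail to tail, 5.5 kb apart with 0 annotated genes between them. Igfbp3 (chr11:7206086-7213923, minus strand) has the same arrangement with Igfbp1, 3.5 kb away. Igfbp4 (chr11:99041244-99054392, plus strand), Igfbp6 (chr15:102144362-102149511, plus strand) and Igfbp7 (chr5:77349240-77408041, minus strand) stand alone. Igfbp7 overlaps the antisense gene Gm34648 over 7085 bases and Polr2b over 85 bases. The kit marks strand, but whether the counting used it is not given in the sources used here.

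The promoters of 5 members are shown, those of the members called for culture in both origins. Igfbp4, Igfbp5, Igfbp6 and Igfbp7 fell in both, and Igfbp2 went in opposite directions. The sequences are the RefSeq GRCm38.p6 bases from 170 to 21 upstream of the annotated start, 5′ to 3′ on the strand of the gene. Capitals mark the TATA box TATAAA, the E-box CANNTG, to which MyoD-type and Myc-type factors bind, and the GC box GGGCGG, each searched on both strands.
Igfbp4 (chr11:99041074-99041223, plus strand): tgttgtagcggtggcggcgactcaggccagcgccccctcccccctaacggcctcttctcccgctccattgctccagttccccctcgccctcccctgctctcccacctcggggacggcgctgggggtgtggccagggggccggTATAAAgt
Igfbp5 (chr1:72874886-72875035, minus strand): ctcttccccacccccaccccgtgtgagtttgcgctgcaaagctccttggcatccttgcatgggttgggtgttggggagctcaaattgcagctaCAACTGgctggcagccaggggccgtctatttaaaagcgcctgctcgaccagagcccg
Igfbp6 (chr15:102144016-102144165, plus strand): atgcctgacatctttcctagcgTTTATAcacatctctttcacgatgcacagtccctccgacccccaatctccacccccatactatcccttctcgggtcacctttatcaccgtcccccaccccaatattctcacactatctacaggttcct
Igfbp7 (chr5:77408066-77408215, minus strand): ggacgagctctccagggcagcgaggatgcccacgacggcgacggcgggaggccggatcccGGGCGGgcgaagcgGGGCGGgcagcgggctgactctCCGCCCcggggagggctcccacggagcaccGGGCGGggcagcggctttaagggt
Igfbp2 (chr1:72824310-72824459, plus strand): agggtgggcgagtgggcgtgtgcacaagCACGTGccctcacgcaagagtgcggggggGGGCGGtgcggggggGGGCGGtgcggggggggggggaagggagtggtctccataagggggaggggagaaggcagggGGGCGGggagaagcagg
The Igfbp4 window holds a TATAAA beginning 28 bases upstream of the start, and the Igfbp5 window holds a CAACTG E-box at 77. The Igfbp6 window has a TATAAA on the opposite strand at 148, and its RefSeq start lies 176 bases upstream of the GENCODE start. Igfbp7 has 4 GC boxes, while Igfbp2 has 3 GC boxes and a CACGTG E-box. In the same 150 bases of all 32851 RefSeq promoters, TATAAA occurs in 7.75%, CANNTG in 48.0% and GGGCGG in 26.4%. None of these 3 motifs was common to the windows of Igfbp4, Igfbp5, Igfbp6 and Igfbp7.

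The libraries held between 11930961 and 21146632 estimated counts. Levels are given as normalized counts, the estimated count divided by the TMM scale of its library, and 3 counts corresponded to between 2.26 and 4.04 normalized counts. Genes were tested with edgeR's quasi-likelihood test over 17582 genes, and one was called where its Benjamini-Hochberg adjusted p was below 0.05 and its change passed the minimum fold set in the study. Myogenic progenitor markers (Pax7, Myf5, Myod1, Itga7, Vcam1, Cdh15, Des) were present in every library, with summed levels between 20859 and 53407. Within this list, Pax7, Myf5 and Vcam1 had lower means after culture in both origins, while Myod1, Itga7, Cdh15 and Des had higher ones. Pax7 went from 4141 in TF to 1479 in TE and from 4012 in SF to 1546 in SE. Des went from 6089 to 16526 and from 12786 to 25828. Markers of several other cell types were also present in the fresh libraries, and their sums were lower in the expanded ones. The 6 fibro-adipogenic markers summed to between 16416 and 29423 in TF and SF against 38.2 to 124 in TE and SE. The 5 pericyte and smooth muscle markers summed to between 9435 and 13131 against 1015 to 2076. Not all of these were low after culture. Cspg4 had means of 867 in TF, 446 in TE, 594 in SF and 457 in SE, and Rgs5 had 1023 in SE. The 6 endothelial markers summed to between 1114 and 5684 against 7.48 to 35.5. The endothelial genes Kdr, Emcn and Cldn5 had 0 counts in all 4 expanded libraries. The 5 haematopoietic markers reached 5595 in TF replicate 1, against 503 in TF replicate 2, 383 to 393 in SF and 12.1 to 104 in the expanded libraries. The 4 Schwann cell markers summed to between 889 and 1023 in SF, 188 to 192 in TF and 36.6 to 71.0 in the expanded libraries. The 4 pluripotency markers summed to at most 158, in SF. Markers of differentiating muscle such as Myog and Myh3 moved the other way, from between 380 and 6934 in the fresh libraries to between 83156 and 167847 in the expanded ones. The part of these other cells in the Igfbp differences between fresh and expanded cells was not tested. In such bulk samples, fewer cells of a type and less RNA per cell cannot be told apart.

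**Figure D1:**
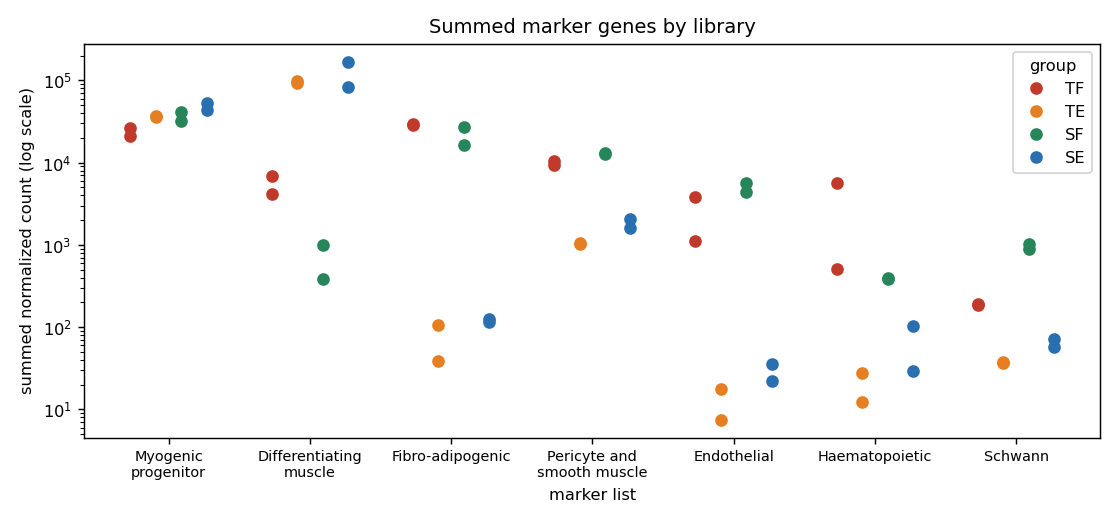
Summed normalized counts (log axis) of 7 marker lists, with 1 point for each library and the groups in colour. The fibro-adipogenic, pericyte and endothelial sums of the fresh libraries (TF, SF) lie above those of the expanded libraries (TE, SE), and the sums of differentiating muscle lie below them.

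In the teratoma-derived cells, 5 of the 6 Igfbp genes fell in culture and 0 were called higher, all 6 log2 fold changes lying below 0. Igfbp2 and Igfbp7 fell about 32-fold and 31-fold, Igfbp4 by 16.0-fold, and Igfbp5 and Igfbp6 by 8.07-fold and 7.31-fold, whereas Igfbp3 did not pass the test. Over all genes tested, 26.1% were called in TE versus TF (9.86% higher and 16.2% lower). The median log2 fold change of the 6 members was -3.51, beside -0.18 over all genes tested.

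Igfbp5 was the member with the most normalized counts, without regard to transcript length. It had 89325 and 121342 normalized counts in TF and 12819 and 13302 in TE, so that the groups did not overlap. Its log2 fold change was -3.01 (SE 0.28, adjusted p = 6.86e-05 from edgeR). Igfbp4, which encodes a carrier that mainly inhibits IGF action until it is cut, had 19360 and 22406 normalized counts in TF and 1294 and 1311 in TE. The 2 TE libraries were almost equal and lay far below TF (log2 fold change -4.00, SE 0.31, adjusted p = 2.41e-05 from edgeR). Igfbp7 had 8010 and 7964 normalized counts in TF, and 288 and 222 in TE. The groups did not overlap (log2 fold change -4.97, SE 0.30, adjusted p = 6.16e-06 from edgeR).

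Igfbp2, a carrier abundant in embryonic tissues, had 2465 and 2764 normalized counts in TF and 69.4 and 95.6 in TE. It changed the most on the log2 scale, by -4.98 (SE 0.26, adjusted p = 3.13e-06 from edgeR). Igfbp6, which binds IGF2 more tightly than IGF1, had 734 and 755 in TF and 128 and 74.8 in TE, the TE replicates being 1.72-fold apart (log2 fold change -2.87, SE 0.26, adjusted p = 5.62e-05 from edgeR). Igfbp3, the main carrier of IGF in serum, was the exception. It had 5540 and 5805 normalized counts in TF and 4133 and 4222 in TE. All values in TE lay below those in TF, but the log2 fold change of -0.44 (SE 0.24) had an adjusted p of 0.199 from edgeR. With only the TF and TE libraries in the fit the adjusted p was 0.00792.

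**Figure D2:**
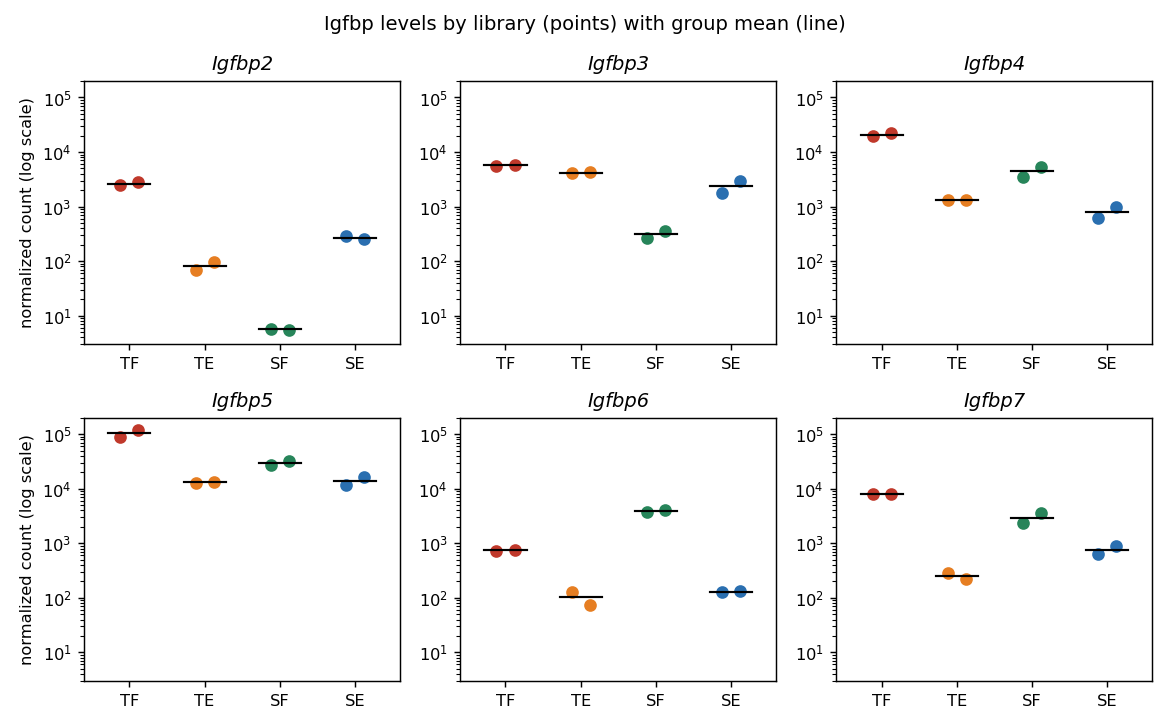
Normalized counts (log axis) of the 6 Igfbp genes in the 4 groups, with 1 point per library and a line at the mean of 2 replicates. TF is the highest group for all members except Igfbp6, which is highest in SF at 3820 and 4102.

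In the satellite cells, culture moved the family in both directions. Igfbp2 and Igfbp3 rose 47.1-fold and 7.60-fold, while Igfbp6 fell 30.6-fold, Igfbp4 5.44-fold, Igfbp7 3.85-fold and Igfbp5 2.12-fold. All 6 members passed the test in SE versus SF, beside 40.7% of all genes tested (20.9% higher and 19.8% lower). The median log2 fold change was -1.51 over the members and -0.23 over all genes.

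Igfbp2 was nearly undetected in fresh satellite cells, with 5 estimated counts in each SF library (5.82 and 5.39 normalized counts). It reached 285 and 253 in SE, a log2 fold change of 5.56 (SE 0.33, adjusted p = 3.86e-06 from edgeR) whose size rests on those few SF counts. Igfbp3 had 266 and 351 normalized counts in SF and 1810 and 2890 in SE. The SE replicates were 1.60-fold apart, and both lay above SF (log2 fold change 2.93, SE 0.26, adjusted p = 3.22e-05 from edgeR).

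Igfbp6 was the member with the steepest fall. It had 3820 and 4102 normalized counts in SF, and 128 and 131 in SE (log2 fold change -4.94, SE 0.28, adjusted p = 3.28e-06 from edgeR). Igfbp4 had 3432 and 5389 in SF and 624 and 997 in SE (log2 fold change -2.44, SE 0.29, adjusted p = 0.000162 from edgeR). Igfbp7 had 2367 and 3524 in SF and 629 and 904 in SE (log2 fold change -1.94, SE 0.26, adjusted p = 0.000349 from edgeR). For both genes, as for Igfbp3 and Igfbp5, replicate 2 was the higher library in SF and in SE, and the groups did not overlap. Igfbp5 changed least, from 27229 and 32539 to 11622 and 16629 (log2 fold change -1.08, SE 0.26, adjusted p = 0.00942 from edgeR). This call was lost without SE replicate 1, where the log2 fold change was -0.83 and the adjusted p 0.0588.

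**Figure D3:**
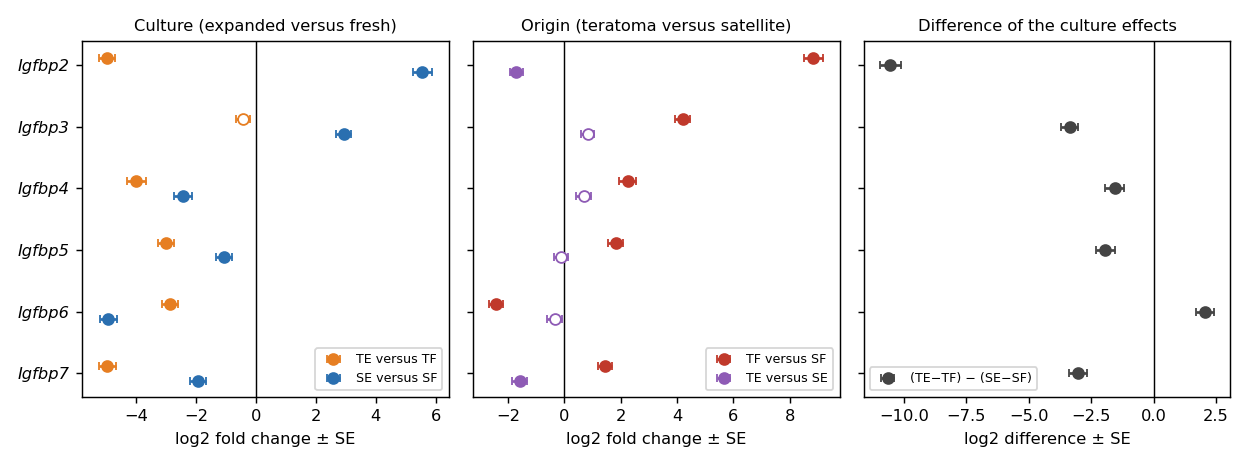
Log2 fold changes of the 6 members with their standard errors for culture (left) and origin (middle), and the difference between the 2 culture effects (right). Filled points passed the thresholds and open points did not. Igfbp2 lies at -4.98 in TE versus TF and at 5.56 in SE versus SF.

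The effect of culture therefore differed between the origins. The difference between the 2 log2 fold changes (TE minus TF, less SE minus SF) passed the test for all 6 members, beside 14.3% of all genes (4.7% higher and 9.62% lower). It was largest for Igfbp2, at -10.54 (SE 0.41, adjusted p = 6.67e-06 from edgeR), which fell in one origin and rose in the other. Igfbp3 (-3.37, SE 0.35) and Igfbp7 (-3.02, SE 0.37) followed, with adjusted p-values of 0.000488 and 0.000984. Igfbp6 was the member whose difference was positive, at 2.07 (SE 0.35, adjusted p = 0.00463 from edgeR), since it fell more in satellite cells. The differences of Igfbp5 (-1.93, SE 0.37, adjusted p = 0.0084) and Igfbp4 (-1.56, SE 0.39, adjusted p = 0.0276) were smaller. Igfbp5 was not called without TE replicate 1 (adjusted p = 0.06) or TE replicate 2 (0.0518). Igfbp4 was not called without TE replicate 1 (0.0969), TE replicate 2 (0.0879), TF replicate 2 (0.0752) or SF replicate 1 (0.0586).

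In fresh cells, teratoma-derived progenitors had more RNA of 5 members than satellite cells and less of 1. The excess in TF was 18.3-fold for Igfbp3, 4.73-fold for Igfbp4, 3.52-fold for Igfbp5 and 2.71-fold for Igfbp7. Igfbp2 separated the groups most, with a log2 fold change of 8.84 (SE 0.34, adjusted p = 5.61e-06 from edgeR) against the 5 counts in each SF library. Igfbp6 was 5.32-fold lower in TF. All 6 members were called, beside 24.2% of all genes tested (15.1% higher and 9.13% lower), with adjusted p-values up to 0.00389 for Igfbp7. With median-ratio scaling the share of higher genes among all calls moved from 62.3% to 52.1%, and the 6 members kept their calls. The fibro-adipogenic markers summed to 28578 to 29423 in TF and 16416 to 26814 in SF. The pericyte and smooth muscle markers summed to 9435 to 10485 and 12563 to 13131. Single fibro-adipogenic genes went both ways. Lum had means of 4935 in TF and 1071 in SF, and Pdgfra of 4399 and 1656. Dcn (13356 and 12073) and Ly6a (192 and 177) were also higher in TF. Dpt (3718 and 3942) and Cd34 (2401 and 2695) were higher in SF. The sum of the Schwann cell markers, like Igfbp6, was higher in SF. The part of these cells in the differences was not tested.

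After culture, the 2 origins differed in fewer members. Igfbp2 and Igfbp7 were lower in TE than in SE, by 3.26-fold (log2 fold change -1.70, SE 0.23, adjusted p = 0.00255 from edgeR) and by a log2 fold change of -1.59 (SE 0.26, adjusted p = 0.00671 from edgeR). These 2 of 6 stand beside 7.21% of all genes tested (3.15% higher and 4.07% lower). The call of Igfbp7 was lost without TE replicate 2 (adjusted p = 0.0625). Igfbp3 was 1.78-fold higher in TE without passing (log2 fold change 0.83, SE 0.24, adjusted p = 0.0729), and it passed with DESeq2 (0.0132), without the filter (0.00692), without SE replicate 2 (0.00431) and without SF replicate 2 (0.0427). The log2 fold changes of Igfbp4 (0.69, SE 0.28, adjusted p = 0.203), Igfbp6 (-0.35, SE 0.25, adjusted p = 0.511) and Igfbp5 (-0.11, SE 0.26, adjusted p = 0.906) did not pass. Igfbp4 passed without SE replicate 2, at 1.06 (adjusted p = 0.03). SE replicate 2 had more differentiating muscle marker RNA than SE replicate 1 (167847 against 83156), and in it Igfbp3, Igfbp4, Igfbp5 and Igfbp7 were higher, while Igfbp2 was lower and Igfbp6 nearly equal (131 against 128). In SF, replicate 2 was likewise the higher library for Igfbp3, Igfbp4, Igfbp5 and Igfbp7, and also for Igfbp6 (4102 against 3820). There its sum of differentiating muscle markers was the lower one (380 against 987). The part of the marker difference in these values was not tested.

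The remaining pairs differ in both origin and culture. All 6 members were higher in TF than in SE, where 23.6% of all genes were called (14.5% higher and 9.16% lower). The differences ran from 2.41-fold for Igfbp3 (adjusted p = 0.00459 from edgeR) to 25.8-fold for Igfbp4 (adjusted p = 1.31e-05). In TE versus SF, Igfbp2 and Igfbp3 were higher and the other 4 lower, where 46.6% of all genes were called (23% higher and 23.6% lower). The Igfbp5 call in that pair was lost without TE replicate 1 (adjusted p = 0.0702) or TE replicate 2 (0.0599). The 6 pairs share groups, so their values are not independent. From these 6 pairwise tests the levels of each gene can be ordered. Igfbp2 and Igfbp7 had 4 separate levels, in the order TF, SE, TE, SF for Igfbp2 and TF, SF, SE, TE for Igfbp7. For Igfbp4, Igfbp5 and Igfbp6 the fresh groups were separate and both above the expanded groups, which did not differ beyond their spread by this test. For Igfbp3, the neighbours TF and TE did not pass the test, nor did TE and SE, while TF was above SE, and SF was the lowest.

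**Figure D4:**
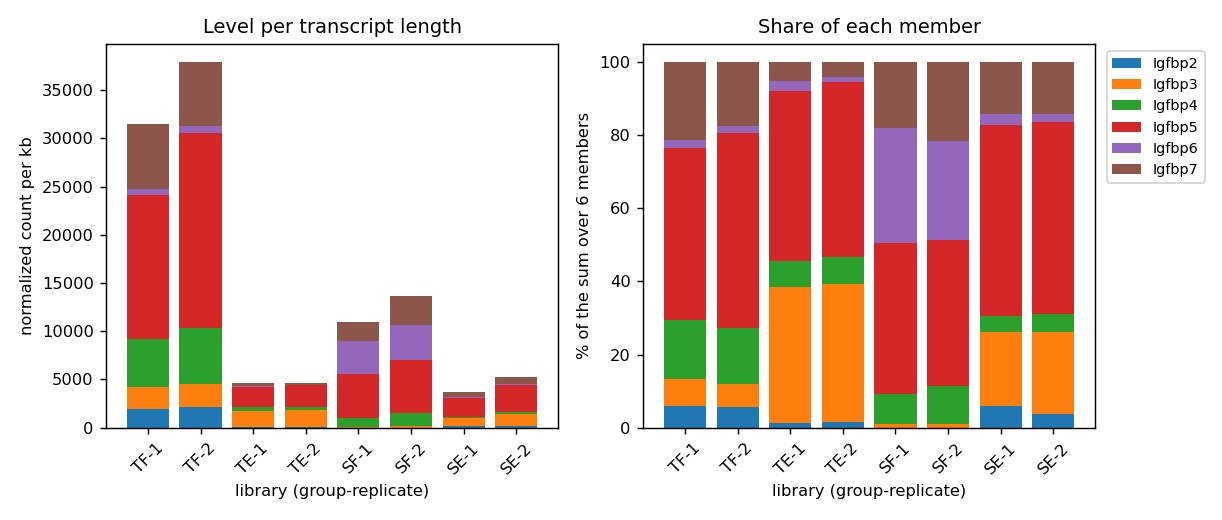
Normalized counts per kilobase of the longest annotated transcript, stacked for the 6 members in each library (left), and the share of each member in that sum (right). The sum is between 31436 and 37880 in TF and between 3703 and 5287 in the expanded libraries.

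Levels of different genes can be compared only per length. Dividing by the longest GENCODE M21 transcript (1112 bases for Igfbp6 to 6006 for Igfbp5), the summed level of the 6 members was 34658 ± 4557 normalized counts per kilobase in TF, 12275 ± 1872 in SF, 4607 ± 27.0 in TE and 4495 ± 1120 in SE (SD, n = 2 each). The TE and SE sums overlapped, and TF and SF lay above both. Igfbp5 held the largest share in all 4 groups, between 40.6% in SF and 52.3% in SE (means of 2). What surrounded it differed. In SF the next was Igfbp6, at 27.1% and 31.4% of the sum in the 2 libraries, against means of at most 2.66% in the other groups. In the expanded groups it was Igfbp3, at 37.5% ± 0.35 in TE and 21.4% ± 1.69 in SE, against 6.80% ± 0.67 in TF and 1.04% ± 0.04 in SF (SD, n = 2 each). In TF, Igfbp7 (19.4% ± 2.63) and Igfbp4 (15.8% ± 0.45) came next. The shares depend on the transcript length, most of all for Igfbp4. With the median length of its transcripts, Igfbp4 held 45.1% in TF and 32.0% in SF, and in TF it then exceeded Igfbp5 (33.5%). The large share of Igfbp6 in SF (20.2%) and of Igfbp3 in TE (30.4%) and SE (18.8%) stood out from the other groups under both lengths.

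Over the 8 libraries, Igfbp4 and Igfbp5 were the most alike pair of members (Pearson r = 0.98 and Spearman rho = 0.93 of log2 normalized counts plus 1). Igfbp7 followed them (r = 0.92 with Igfbp5 and 0.89 with Igfbp4). Igfbp2 and Igfbp3 formed the other pair (r = 0.86), and Igfbp3 and Igfbp6 were the most opposed (r = -0.71). The neighbours Igfbp2 and Igfbp5 had r = 0.49. These coefficients mostly compare 4 group means, since replicates lie close together, and are descriptions. Among 12136 other genes whose mean reached 50 normalized counts, those closest to Igfbp4 were Pdgfrb (r = 0.99), a receptor gene that is also on the pericyte marker list, Csrp2 and Nfix. The other genes of that list went both ways in the fresh groups. Rgs5 had means of 1682 in TF and 4868 in SF, and Myh11 of 2536 and 5605. Kcnj8 (390 in TF and 214 in SF) and Cspg4 (867 and 594) were, like Igfbp4, higher in TF. For Igfbp5 the closest genes were Ccdc80, Grik5 and Fuca1, and for Igfbp7 Dapk1, Emilin3 and Rbl2. Those of Igfbp2 were Lrp5, Dner and Ckap4, those of Igfbp3 Nudcd3, H1f0 and Rragc, and those of Igfbp6 Trib1, Hs6st3 and Kmt2c. Hs6st3, with 0 counts in the 4 expanded libraries, and Emilin3, with 0 in TE, ranked only 141 and 28 when 8 was added in place of 1, and the other genes ranked 6 or better. Pdgfrb had 4303 and 4666 normalized counts in TF, 644 and 477 in TE, 1335 and 1797 in SF, and 277 and 436 in SE.

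The ligands of the family, with their receptors, had 0 genes called higher and 2 lower of 5 in TE versus TF, where 26.1% of all genes were called, and 1 higher and 1 lower in SE versus SF, where 40.7% were. Igf1 had 7895 ± 825 normalized counts in TF and 394 ± 13.5 in TE, and 1135 ± 183 in SF and 224 ± 253 in SE (SD, n = 2 each), with the SE replicates at 45.6 and 403. It fell in both origins, by a log2 fold change of -4.32 (adjusted p = 0.00238 from edgeR) and -2.35 (0.0223). Igf2 rose in satellite cells from 1945 ± 104 to 34417 ± 23558 (log2 fold change 4.15, adjusted p = 0.000113 from edgeR), and had 89295 ± 7539 in TF and 138256 ± 973 in TE (SD, n = 2 each), where its log2 fold change of 0.63 did not pass. Like Igfbp2 and Igfbp3, Igf2 was called higher in SE than in SF. Among the receptors, Igf2r, which clears IGF2, was lower in TE than in TF (log2 fold change -0.74, adjusted p = 0.0207 from edgeR). Igf1r had mean levels between 2447 in TF and 4008 in SE, and Insr between 889 in TF and 992 in SF. Neither was called for culture, with log2 fold changes of 0.64 (Igf1r) and 0.02 (Insr) in TE versus TF and of 0.11 and -0.10 in SE versus SF. Igf2 was higher in teratoma-derived than in satellite cells both fresh (5.52) and expanded (2.01), and Igf1 (2.80) and Igf2r (0.78) were higher in the fresh ones, all as log2 fold changes. Over all genes tested, 15.1% were higher in TF versus SF and 3.15% in TE versus SE. Of these 5 genes, Igf2 was the 1 whose change with culture differed between origins (-3.51, adjusted p = 0.0046 from edgeR), beside 14.3% of all genes.

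**Figure D5:**
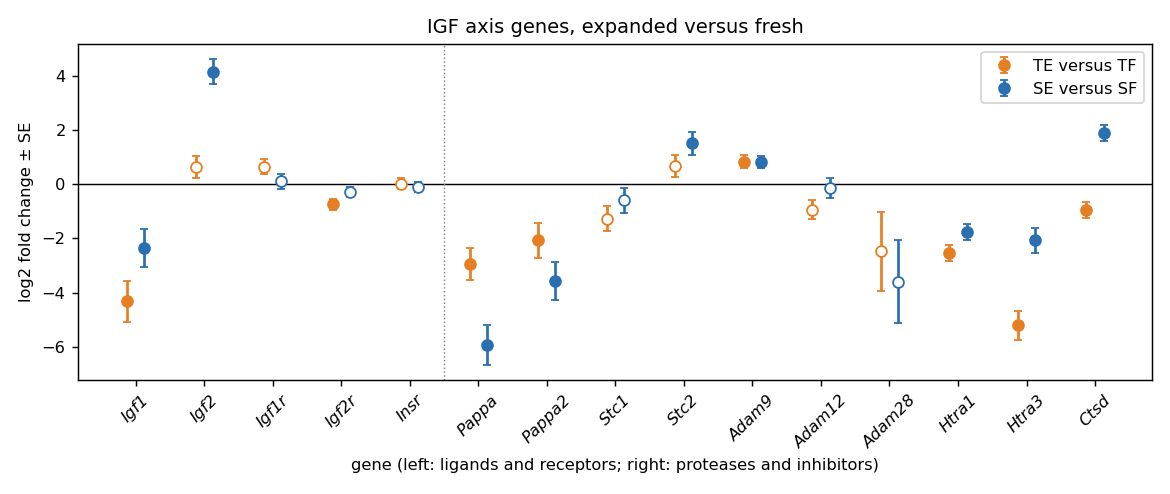
Log2 fold changes with standard errors of IGF ligands, receptors, and IGFBP proteases and their inhibitors for TE versus TF and SE versus SF. Filled points passed the thresholds. Pappa and Pappa2 lie below 0 in both comparisons, and Igf2 lies at 4.15 in SE versus SF.

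The proteases that cut Igfbp proteins were listed with their stanniocalcin inhibitors. Of 10 genes, 5 were lower and 1 higher in TE versus TF, beside 16.2% and 9.86% of all genes, with Htra3 at -5.20, Pappa at -2.95, Htra1 at -2.54 and Pappa2 at -2.07 on the log2 scale. The fifth that fell was Ctsd (-0.94), and the one that rose was Adam9 (0.83). In SE versus SF, 4 were lower and 3 higher, beside 19.8% and 20.9% of all genes, with Pappa at -5.91, Pappa2 at -3.57, Htra3 at -2.06 and the lysosomal protease gene Ctsd at 1.89. Adam9 (0.82) and Stc2 (1.51) were the other genes that rose, and Htra1 (-1.76) the other that fell. The change of Ctsd and that of Htra3 differed between origins, by -2.84 and -3.14. These 2 of 10 genes stand beside 14.3% of all genes. Pappa, whose product cuts IGFBP4 and IGFBP5, had 1 and 9 estimated counts in the SE libraries (0.755 and 8.24 normalized counts) and 63.0 and 78.1 normalized counts in TE, a log2 difference of 4.01 between these groups (adjusted p = 0.00944 from edgeR). Htra3 (-2.80), Stc2 (1.80) and Adam12 (1.66) were the other calls in TE versus SE, where 3.15% of all genes were higher and 4.07% lower. In TF versus SF, Stc2 (2.64), Adam12 (2.46), Ctsd (1.87) and Htra1 (1.54) were higher, beside 15.1% of all genes. The median log2 fold change of the list was -1.67 in TE versus TF and -1.17 in SE versus SF.

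Relatives that share the IGFBP domain include the Ccn matrix proteins, and Htra1 and Htra3, which are on the protease list too. Of 13 genes 12 were tested, Igfbp1 being left out with at most 7.0 normalized counts in any library. In TE versus TF, 8 were lower and 0 higher (9 tested genes had an unadjusted p below 0.05 from edgeR), beside 16.2% and 9.86% of all genes. Esm1 had 0 counts in both TE libraries and was at least 62.9-fold lower than in TF, with TE set to 3 counts per library. Ccn5 (-5.72), Ccn3 (-5.46) and Htra3 were the next largest. The sizes for Ccn5 and Ccn3 rest on few estimated counts in TE, 6 and 4 for Ccn5 and 4.18 and 27.3 for Ccn3. In SE versus SF, 5 were lower and 1 higher, beside 19.8% and 20.9% of all genes, with Ccn2 at -2.18, Htra3 at -2.06, Kazald1 at 1.94 and Crim1 at -1.88, followed by Htra1 (-1.76) and Ccn1 (-1.38). In TE versus SE, Ccn4 was higher (1.55) and Htra3 and Esm1 lower, the latter at least 33.7-fold, beside 3.15% and 4.07% of all genes. In TF versus SF, Htra1 was the 1 call among the 12 tested, where 24.2% of all genes were called. The median log2 fold change was -3.31 in TE versus TF (-2.97 with genes at 0 counts set to their bound) and -1.67 in SE versus SF. Htra3 and Esm1, 2 of the 12 tested genes, were the calls for the difference between origins, where 14.3% of all genes were called.

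Substrates and adaptors of the receptors did not share 1 direction. Irs2, which couples IGF and insulin receptors to PI3-kinase, fell in both origins, with log2 fold changes of -2.63 in TE versus TF and -4.83 in SE versus SF. Irs1, its paralog in the same role, rose by 0.76 and 2.05. Grb14 was also lower in TE than in TF (-3.49), and in SE versus SF the inhibitory adaptor gene Grb10 (-1.94) and Pik3r1 (-1.39) were lower and Pik3r3 (1.24) was higher. The change with culture differed between origins for Grb14 (-4.74), Irs2 (2.19), Pik3r1 (1.32) and Irs1 (-1.29), beside 14.3% of all genes. The median log2 fold change of these genes was -0.12 in TE versus TF and 0.21 in SE versus SF. Of the 7 genes, 3 were called in TE versus TF (26.1% of all genes), 5 in SE versus SF (40.7%), 4 in TE versus SE (7.21%) and 4 in TF versus SF (24.2%). Grb10, an imprinted gene, was lower in teratoma-derived cells both fresh (-5.77) and expanded (-5.83). In TE versus SE, Grb14 (-3.29) was lower and Pik3r1 (1.48) and Irs2 (1.23) were higher. In TF versus SF, Pik3r3 (1.45) and Irs1 (1.28) were higher and Irs2 (-0.97) lower. Of the 6 genes for the serum complex and IGF-independent partners, 5 were tested. Cav1 fell in both origins (-3.15 and -4.08), and the IGFBP3 receptor gene Lrp1 fell in TE versus TF (-2.36). The integrin gene Itgb1 was higher in SE than in SF (0.70) and in TF than in SF (0.85). Of all genes, 26.1% were called in TE versus TF, 40.7% in SE versus SF and 24.2% in TF versus SF. In TE versus SE, 0 of these 5 were called by edgeR, 2 had an unadjusted p below 0.05, and DESeq2 called 1. The list's median was -0.73 in TE versus TF and -0.43 in SE versus SF. Itgb1 was the call for the difference between origins (-1.08), where 14.3% of all genes were called.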

How the data were processed

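RNA was sequenced (paired-end, stranded total RNA kit for low input) from 8 libraries in 4 groups of 2, grouped by their titles. Per gene symbol, estimated counts without normalization were deposited by the authors in 1 table. The submitters' processing notes name CASAVA, kallisto 0.44.0, GRCm38 and mm10. kallisto shares reads between similar transcripts, so estimated counts can be fractions. Between 74.4% and 84.4% of a library's values, zeros included, are whole.

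Counts were rounded, filtered with filterByExpr (17582 of 24980 kept), scaled by TMM and tested with edgeR 4.0.16 (R 4.3.3) in 1 quasi-likelihood fit over 4 groups, without a replicate term and with 4 residual degrees of freedom. 7 contrasts were tested, each adjusted over all tested genes. DESeq2 1.42.0, median-ratio scaling, no filter, a replicate block, 2-group fits and leaving out each library were alternatives. The fit was tested on simulated data. Replicates differed beyond sampling noise (chi-square per degree of freedom between 11.7 and 87.2). Transcript lengths and positions came from GENCODE M21, promoters from RefSeq GRCm38.p6; all 6 members matched. The planned description of protein sequences was not made, since no protein table was used here. Values printed are the 6 members in every comparison, and list genes called for culture or origin (the 4 largest whose mean reached 50 normalized counts where more were called, and, after their values were seen, the others where 5 or fewer were called in a direction), all ligands and receptors, and the 3 genes closest to each member. The floors of 3 counts cover counting error only, while each SD is between 2 replicates and each SE comes from the edgeR fit. The members and lists were chosen with earlier results of these data known.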

Additional observations from a re-analysis of the deposited data

Results flagged for a closer look

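The change with culture differed between teratoma-derived and satellite cells for each of the 6 members, by the test of the interaction in edgeR, where 14.3% of all tested genes were called. The difference of the 2 log2 fold changes (teratoma-derived minus satellite) was -10.54 for Igfbp2, -3.37 for Igfbp3, -3.02 for Igfbp7, -1.93 for Igfbp5, -1.56 for Igfbp4 and 2.07 for Igfbp6. Igfbp2 is the member whose 2 called changes have opposite signs, at -4.98 and 5.56. The fresh groups started from different levels, with 2615 ± 211 normalized counts of Igfbp2 in TF (SD, n = 2) and 5.82 and 5.39 in the SF libraries.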

How the results depend on the processing

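Median-ratio scaling kept the direction and the side of the threshold of all 42 values (6 members in 7 comparisons), and each other alternative over all libraries changed 1 call. These were all gains for Igfbp3. In TE versus SE it was called with DESeq2 (log2 fold change 0.81), without the filter (0.83) and with the replicate block (0.86, adjusted p = 0.0463), and in TE versus TF with only the 2 groups compared (-0.46). Numbers of replicates did not pair the libraries (correlations of deviations between -0.03 and 0.08), and the block changed no other call. With each library left out, 2 members called in TE versus SE became between 1 (without TE replicate 2) and 4 (without SE replicate 2), and Igfbp5 in TE versus SE, not called in either case, ranged from -0.34 to 0.17. The counts of members ranged between 4 and 6 for the interaction, 5 and 6 for SE versus SF and for TE versus SF, and stayed at 5, 6 and 6 in TE versus TF, TF versus SF and TF versus SE. Median-ratio scaling moved the median log2 fold change of all genes by -0.19 in SE versus SF, -0.16 in TF versus SF, -0.21 in TE versus SF and 0.14 for the interaction, and the members by as much. Over all genes, 1268 were called in TE versus SE, 2260 without the filter, 2147 with DESeq2 and as few as 653 without TE replicate 2. Likewise 4581 in TE versus TF and 2517 for the interaction became 2739 and 1467 without that library, and 4261 in TF versus SF became 2639 without TF replicate 1. With median transcript lengths the shares of Igfbp4 and Igfbp5 in the summed level changed places in TF, at 45.1% and 33.5%. A left-out library leaves 1 sample in its group, which is assumed to vary like the others. In SF, 5 counts of Igfbp2 per library limit the precision of its folds.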
